A study of Mus musculus with 3 samples.

Results

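The hair shaft and matrix genes described here are the hair keratin genes *Krt31*, *Krt33a*, *Krt35* and *Krt85* and the transcription factor genes *Msx2*, *Hoxc13* and *Dlx3*. These 7 genes were chosen by symbol, and 6 of them are among the 19927 gene symbols of the deposited tables. *Krt85* is in neither the gene names of the tables nor GENCODE M21, so no value is given for it, and a missing name is not a level of 0. The data are 3 single-cell libraries of dorsal skin from mice at P18, an age in the first catagen, the phase in which the follicle regresses. Control 1 and control 2 were made from *Vdr* flox/flox mice, in which the vitamin D receptor gene carries floxed alleles and no Cre is present. The other library holds cells of mice that are *Vdr* flox/flox with Krt14cre (*Vdr* cKO). In these mice the *Krt14* promoter drives Cre in the basal layer of the epidermis and the outer root sheath. Cells that descend from those layers inherit the deletion. The *Vdr* flox/flox genotype is thus common to all groups, and each library pooled the skin of several male mice.

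The hair shaft is built in the bulb of the growing follicle. Cells of the matrix divide around the dermal papilla, move upward and differentiate into the medulla, cortex and cuticle of the shaft, where pairs of acidic and basic hair keratins form filaments that keratin-associated proteins link into a hard fibre. *Hoxc13*, *Msx2* and *Dlx3* encode homeodomain proteins with known roles in this differentiation, and DLX3 is also made in the differentiating epidermis between follicles. Shaft production is a feature of the growth phase, anagen, and ends as the follicle regresses in catagen, so these genes are used as a gauge of follicle stage.

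*Krt31*, *Krt33a* and *Krt35* encode acidic hair keratins and lie within 1 cluster on chromosome 11 of GRCm38, in the order *Krt33a*, *Krt33b*, *Krt34*, *Krt31*, *Krt35*, each on the minus strand. *Krt33a* spans chr11:100011195-100016212, *Krt31* spans chr11:100046646-100050551 and *Krt35* spans chr11:100092193-100096241. *Dlx3* lies elsewhere on the same chromosome at chr11:95120119-95125296 on the plus strand, *Msx2* at chr13:53466884-53473074 on the minus strand and *Hoxc13* at chr15:102921103-102928814 on the plus strand. The start regions of *Krt31* and its neighbours *Krt33b* and *Krt34* are shown because the 3 genes lie side by side and had few or no counts in the controls. *Krt33b* and *Krt34*, named here for their place in the cluster, had 0 counts in both controls and 208 and 51 counts, in 15 and 5 cells, in the library labelled *Vdr* cKO. Another hair keratin gene with few counts, *Krt39*, went the other way, with 111 counts in 2 cells of control 2 and 0 counts in the other libraries. Each window runs from 250 bases before to 50 bases after the transcript start, in the RefSeq annotation of GRCm38.p6, and is written 5′ to 3′ on the minus strand. Capitals mark CTTTGA and CTTTGT, the letters bound by LEF1 and TCF proteins, on either strand (ACAAAG is CTTTGT on the opposite strand), and TATAAA, the TATA box.

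Krt31 (chr11:100050502-100050801): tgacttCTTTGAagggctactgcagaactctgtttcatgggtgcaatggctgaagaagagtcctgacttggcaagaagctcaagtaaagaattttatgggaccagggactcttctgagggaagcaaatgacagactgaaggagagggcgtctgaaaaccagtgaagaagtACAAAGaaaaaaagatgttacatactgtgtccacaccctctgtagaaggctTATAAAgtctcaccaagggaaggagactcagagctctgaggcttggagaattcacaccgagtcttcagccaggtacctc
Krt34 (chr11:100041505-100041804): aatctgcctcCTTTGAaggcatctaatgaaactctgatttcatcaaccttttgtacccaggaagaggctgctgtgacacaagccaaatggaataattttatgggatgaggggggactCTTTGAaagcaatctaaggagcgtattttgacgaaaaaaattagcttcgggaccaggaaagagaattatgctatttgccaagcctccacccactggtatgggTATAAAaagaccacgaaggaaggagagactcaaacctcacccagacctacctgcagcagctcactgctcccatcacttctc
Krt33b (chr11:100029819-100030118): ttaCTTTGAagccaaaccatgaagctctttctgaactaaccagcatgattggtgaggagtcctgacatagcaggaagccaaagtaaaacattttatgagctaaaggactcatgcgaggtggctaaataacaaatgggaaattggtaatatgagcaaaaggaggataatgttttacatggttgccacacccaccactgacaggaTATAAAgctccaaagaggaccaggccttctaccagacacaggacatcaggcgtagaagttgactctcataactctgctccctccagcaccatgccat

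CTTTGA stood 244 bases before the start in *Krt31*, 247 bases before it in *Krt33b*, and 240 and 133 bases before it in *Krt34*. TATAAA stood 29, 47 and 31 bases before the start in *Krt31*, *Krt33b* and *Krt34*. CTTTGT was found once, in *Krt31*, 80 bases before the start. Over 32851 promoters of the same length, searched on both strands, 16.0% held CTTTGA, 18.7% held CTTTGT and 13.6% held TATAAA. Of 9 hair keratin promoters in the table, 5 held CTTTGA, 1 held CTTTGT and 6 held TATAAA. The start region of *Msx2* held none of the 3 motifs, and *Krt33a*, *Krt35*, *Hoxc13* and *Dlx3* have no entry. These matches describe letters and not binding.

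A barcode was taken as a cell when it had 200 or more detected genes and no more than 20% mitochondrial counts. This left 1480 cells in control 1, 1658 in control 2 and 2622 in the library labelled *Vdr* cKO, called the cKO-labelled library below, with 18802408 to 30954897 counts. Median depth per cell was 4055 to 4492.5 counts, but the cells had 91.9, 118 and 165 detected genes for each 1000 counts. *Vdr* had 40.7, 35.9 and 80.8 CPM (counts of a gene for every 1000000 counts in the cells of its library) and was not reduced under the cKO label. Transcripts with and without the deleted exon are summed in these counts. Barcodes shared with another library, or 1 base from another barcode, made up 2.97%, 2.41% and 1.07% of the cells, and 27, 28 and 20 cells had a barcode that another library also holds. A single library carries the cKO label, so that genotype has no replicate and nothing was tested. Levels have exact Poisson and shares have Clopper-Pearson intervals at 95%, for counting error only. Where 3 values stand together, they are those of control 1, control 2 and the cKO-labelled library, in that order.

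Hair keratin transcripts were counted mainly in the cKO-labelled library. *Krt31*, *Krt33a* and *Krt35* together stood at 0.0532 CPM (1 count) in control 1, at 1.57 CPM (45 counts) in control 2 and at 30.9 CPM (955 counts, interval 28.9 to 32.9) in the cKO-labelled library. They were counted in 1 cell, 4 cells and 84 cells. The ratio of the cKO-labelled library to control 2 was 19.7 (14.6 to 27.2), and the log2 fold over the control mean, with 1 CPM added to each value, was 4.14. Control 1 and control 2 differed by a log2 ratio of -1.29 on the same scale.

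*Krt31*, an acidic keratin of the cortex, had 0 counts in control 1 and stood at 1.29 CPM in control 2 and 6.53 CPM (5.66 to 7.49) in the cKO-labelled library. Its 37 counts in control 2 came from 2 cells with 24 and 13 counts, and its 202 counts in the cKO-labelled library came from 24 cells. The level there was 40.9-fold that of 3 counts in control 1, a limit set here for a count of 0, and 5.06-fold (3.55 to 7.39) higher than in control 2. The exact interval for the 0 counts of control 1 reaches 0.196 CPM, above the 0.16 CPM of 3 counts. Folds taken against 3 counts are therefore not lower bounds.

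*Krt33a*, also of the cortex, had 0 counts in control 1 and stood at 0.279 CPM (8 counts in 2 cells) in control 2 and 10.7 CPM (9.57 to 11.9) in the cKO-labelled library, where 32 cells held 331 counts. The last level was 67.0-fold that of 3 counts in control 1 and 38.3-fold (19.2 to 89.6) higher than in control 2. *Krt33a* and *Krt31* are close relatives. Of the stretches of 50 bases in the *Krt31* transcript, 14.4% were also in *Krt33a* and 20.8% in *Krt34*, so the division of counts among these genes is uncertain. In the last 500 bases of the transcripts, *Krt31* had no such stretch in common with *Krt33a* or *Krt34*, but 5.99% of its stretches there were also in *Krt33b*.

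*Krt35*, which is made early in the differentiation of matrix cells into cortex and cuticle, had 1 count (0.0532 CPM) in control 1, 0 counts in control 2 and 13.6 CPM (12.4 to 15.0) in the cKO-labelled library. There 40 cells held 422 counts. The level was 130-fold that of 3 counts in control 2, and its ratio to the single count of control 1 was 256 (45.8 to 10100). At most 2.26% of its stretches of 50 bases were in another of the hair keratin transcripts compared.

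The controls held more counts of the regulators than of the hair keratins, and most of those regulator counts were of *Dlx3*. It had 230 of the 280 counts in control 1, 639 of the 900 in control 2 and 643 of the 1422 in the cKO-labelled library. *Msx2*, *Hoxc13* and *Dlx3* together stood at 14.9 CPM in control 1, at 31.4 CPM in control 2 and at 45.9 CPM (43.6 to 48.4) in the cKO-labelled library, in 42, 98 and 218 cells. Over the control mean the log2 fold was 0.96, and control 1 and control 2 differed by -1.03 on the same scale. That log2 fold was smaller than the difference between the controls.

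*Msx2* stood at 1.81 CPM (1.25 to 2.53) in control 1, at 2.34 CPM (1.81 to 2.97) in control 2 and at 12.1 CPM (10.9 to 13.4) in the cKO-labelled library, in 9, 12 and 61 cells. The intervals of the controls overlapped and that of the cKO-labelled library lay above both. It was 6.70-fold (4.71 to 9.82) higher than in control 1 and 5.19-fold (3.99 to 6.83) higher than in control 2, with a log2 fold of 2.09. When each gene was counted once per cell, the log2 fold of *Msx2* was 1.16, and when cells were weighted equally by averaging their CPM it was 1.12.

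*Hoxc13* stood at 0.851 CPM (0.486 to 1.38) in control 1, at 6.76 CPM (5.84 to 7.78) in control 2 and at 13.1 CPM (11.8 to 14.4) in the cKO-labelled library, in 5, 16 and 63 cells. All 3 intervals were separate, but they treat counts as independent and are too narrow where few cells hold many counts. Before thinning, the shares of cells were 0.338% (0.11% to 0.787%), 0.965% (0.553% to 1.56%) and 2.40% (1.85% to 3.06%). The intervals of these shares overlapped between the controls, and that of the cKO-labelled library lay above both. The gene was 1.93-fold (1.62 to 2.30) higher than in control 2, and the log2 ratio between the controls, -2.07, was larger than the log2 fold of 1.55. In control 2, the 3 highest cells held 47, 41 and 34 of its 194 counts. With cells weighted equally the log2 fold was 3.0015.

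*Dlx3* stood at 12.2 CPM (10.7 to 13.9) in control 1, at 22.3 CPM (20.6 to 24.1) in control 2 and at 20.8 CPM (19.2 to 22.4) in the cKO-labelled library, in 28, 71 and 121 cells. The level in the cKO-labelled library lay between the controls, with an interval that overlapped that of control 2. Its ratio to control 2 was 0.933 (0.835 to 1.04) and to control 1 it was 1.70 (1.46 to 1.98). The log2 fold of 0.25 was smaller than the log2 ratio of -0.81 between the controls, and it was 0.83 with cells weighted equally.

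**Figure D1:**
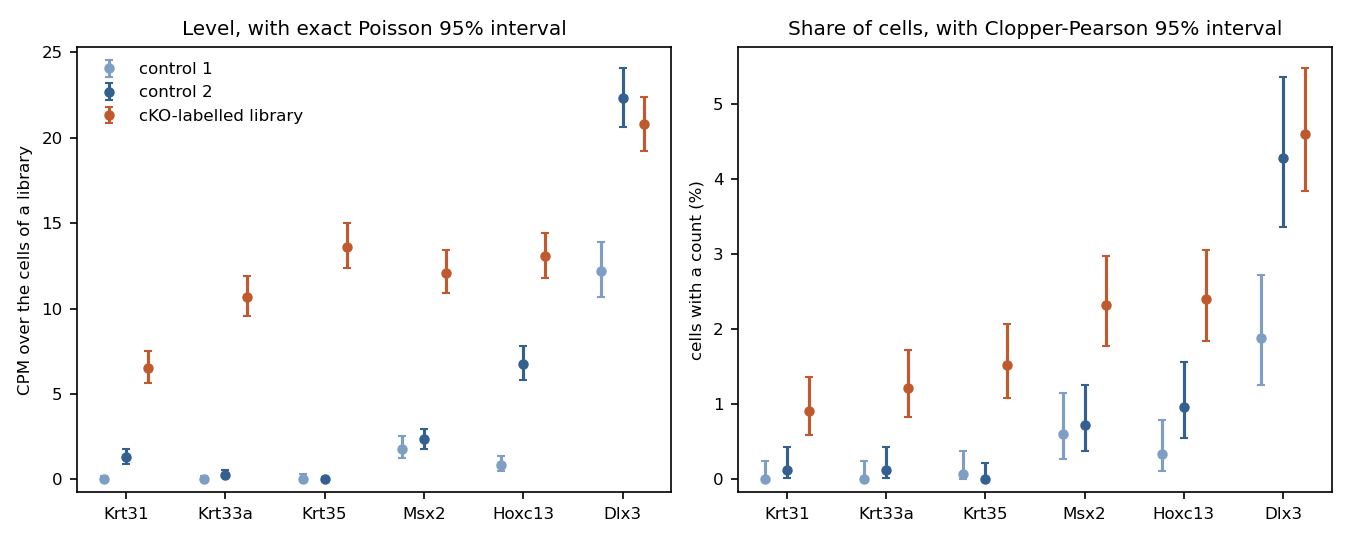
Level of each gene in CPM with exact Poisson 95% intervals (left) and share of cells with a count in percent with Clopper-Pearson 95% intervals (right), for control 1, control 2 and the cKO-labelled library. Krt31, Krt33a and Krt35 lie near 0 in the controls and between 6.53 and 13.6 CPM in the cKO-labelled library, whereas the CPM of Dlx3 there lies between the controls. The share of cells with Dlx3 is 1.89%, 4.28% and 4.61%, highest in the cKO-labelled library, with an interval that overlaps that of control 2.

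Of 8806 genes that reached 10 CPM in any library, 7.97% stood over 2-fold above both controls under the cKO label and 1.44% stood over 2-fold below both. Of the 7 genes, 5 were at that level in a library, 3 of these were over 2-fold above both controls (*Krt33a*, *Krt35* and *Msx2*) and 0 were below. *Krt33a*, *Krt35*, *Msx2* and *Hoxc13* reached 10 CPM only in the cKO-labelled library, so they could enter the count only by being high there, and *Krt31* did not reach it. Of all 755 genes that reached 10 CPM only in that library, 59.1% were over 2-fold above both controls. The median log2 fold of all 8806 genes was 0.14. The higher genes were 84.7% of the 829 genes that stood apart in either direction, 71.0% when scaled by edgeR's TMM and 68.6% when scaled by DESeq2's median of ratios, which moved that median to -0.05 and -0.08.

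Shares of cells were also compared after thinning to equal counts, which leaves the difference in detected genes per 1000 counts in place. With 1000 counts drawn at random from every cell that had them (1466, 1597 and 2562 cells), a hair keratin was counted in 0 cells of control 1, 1 cell of control 2 (0.0626%) and 34 cells of the cKO-labelled library (1.33%, interval 0.921% to 1.85%). The 0 of 1466 cells allows a share of cells with a count of up to 0.205% by a limit of 3 cells and up to 0.251% by the upper end of the Clopper-Pearson interval. Over all possible draws the mean shares, a value added after seeing the data, were 0.00524%, 0.147% and 1.46%. Before thinning the share in the cKO-labelled library was 3.20%. *Krt31*, *Krt33a* and *Krt35* were found in 13, 16 and 11 thinned cells there.

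A regulator was counted in 0.614% (0.281% to 1.16%), 1.38% (0.865% to 2.08%) and 2.73% (2.14% to 3.44%) of the thinned cells. *Dlx3* had shares of 0.477%, 1.13% and 1.41%, with overlapping intervals in control 2 and the cKO-labelled library. *Msx2* was found in 2, 2 and 19 cells and *Hoxc13* in 0, 2 and 16 cells. Among all 8806 genes, the thinned share was over 2-fold above both controls for 13.7%, and it was above both controls by any amount for 70.2%. *Krt33a*, *Krt35*, *Msx2* and *Hoxc13* were over 2-fold above, where any share of fewer than 3 cells was raised to 3 cells. These 4 genes reached 10 CPM only in the cKO-labelled library, so they were among the 8806 only by being high there. The percentage over 2-fold among all genes that entered in that way is not given here. *Krt31* was not among the 8806. When 200 detected genes per cell were drawn in place of counts, a choice made after the data were seen, a regulator was found in 0.676%, 1.03% and 1.14% of the cells and a hair keratin in 0%, 0.0603% and 0.992%. With that draw, the intervals of control 2 and the cKO-labelled library overlapped for a regulator and did not for a hair keratin. These intervals cover counting error within single libraries and do not measure the spread between libraries, so no difference was tested.

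The hair keratin counts came from few cells. In the cKO-labelled library, 1 cell held 421 of the 955 counts (44.1%), the highest 2 cells held 56.2% and the highest 10 cells held 78.7%, while 35 of the 84 cells had a single count. Without the highest cell of each library, the sum was 0, 0.732 and 17.3 CPM and the log2 fold was 3.74. The regulators were spread more widely, with 3.87% of their counts in the highest cell and 26.4% in the highest 10 cells.

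Genes of the group were found together in 1 cell of control 1, 1 cell of control 2 and 32 of 2622 cells (1.22%, interval 0.836% to 1.72%) of the cKO-labelled library. Of these 32 cells, 21 had 2 of the genes, 6 had 3, 1 had 4, 3 had 5 and 1 had all 6. After thinning, 6 cells of the cKO-labelled library had 2 or more (0.234%, interval 0.0860% to 0.509%), against 0 in both controls (intervals up to 0.251% and 0.231%). These intervals overlap, and with 200 detected genes drawn per cell, a choice made after the data were seen, 0 cells of any library had 2 or more. Before thinning, a count of at least 2 hair keratins was found in 7 cells and of all 3 in 5 cells.

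The cell with the most hair keratin counts had 92 counts of *Krt31*, 139 of *Krt33a* and 190 of *Krt35*, with 12 of *Hoxc13*, 2 of *Msx2* and 1 of *Dlx3*. Hair keratins stood at 12700 CPM in this cell of 33094 counts, and it also held 683 counts of 7 other hair keratins and 753 counts of 10 keratin-associated protein genes. It had counts of no marker in the list of cycling cells and 6 counts of 1 inner root sheath marker. This was the only cell with all 6 genes.

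The next cell had 25, 19 and 72 counts of *Krt31*, *Krt33a* and *Krt35*, 3 of *Hoxc13* and 1 of *Msx2* among 9986 counts, with 217 counts of 6 other hair keratins and 182 counts of 8 keratin-associated protein genes. The third and the fourth cell carried another mixture. The third had 2, 23 and 10 counts of the hair keratins and 102 counts of 5 inner root sheath markers, and the fourth had 1, 16 and 6 counts and 42 counts of 6 inner root sheath markers. Neither had a count of *Msx2*, *Hoxc13* or *Dlx3*. A further cell had 11 counts of *Krt31* and 6 of *Krt33a* with 110 counts of 4 other hair keratins, and a cell with 21 counts of *Krt35* and 3 of *Hoxc13* had no other hair keratin.

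Of the remaining 26 cells with 2 or more of the genes, 23 were deeper than the median cell of the library. The 2 barcodes with 184137 and 158910 counts and 10096 and 9866 detected genes each held 5 of the genes at low counts, together with markers of the inner root sheath, cycling and granular lists, and both barcodes were shared with another library. Doublets were not called or removed, and their part in joint detection was not tested. Of the 32 cells, 4 had a barcode shared with another library, and 3 of the 84 hair keratin cells had a shared or near-identical barcode, with 20 of the 955 counts. Without such barcodes the log2 fold of the summed hair keratins was 4.14 and that of the regulators 0.95.

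**Figure D2:**
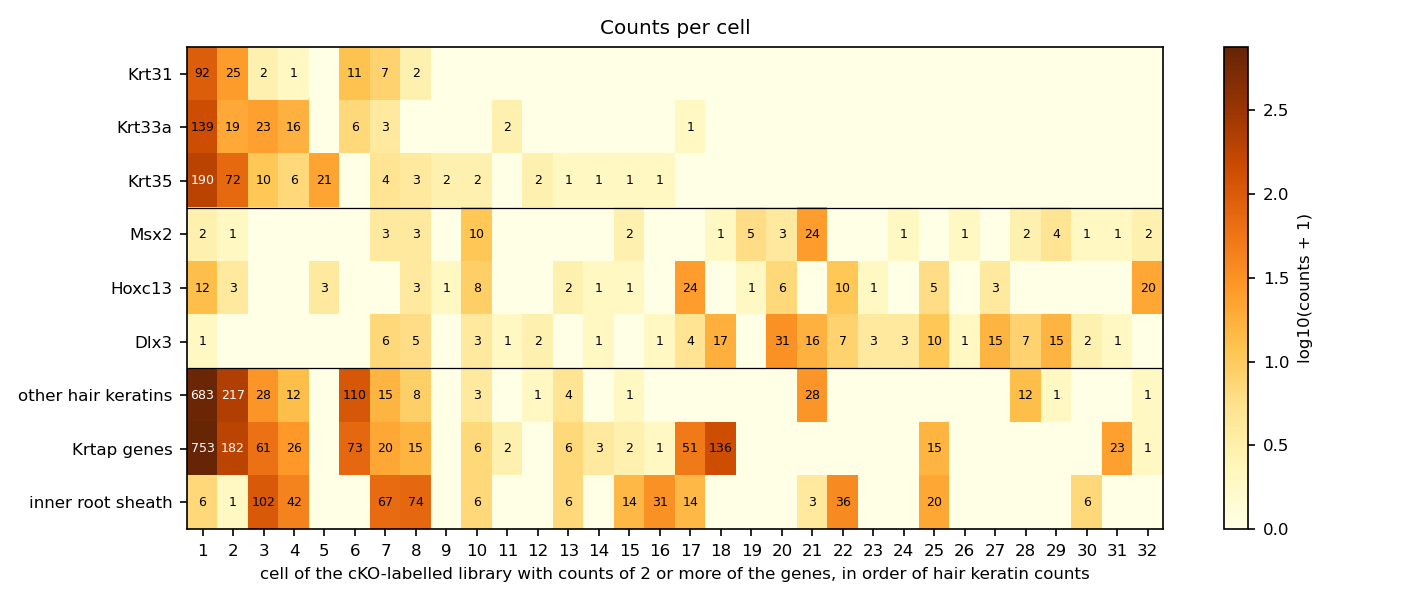
Counts of each gene (rows) in the 32 cells of the cKO-labelled library that held 2 or more of the genes (columns, in order of hair keratin counts), with the summed counts of other hair keratins, keratin-associated protein (Krtap) genes and inner root sheath markers below; colour is log10(counts + 1). Cells 1, 2 and 6 hold 683, 217 and 110 counts of other hair keratins, cells 3 and 4 hold 102 and 42 inner root sheath counts, and cells 18 to 32 hold 2 or more regulators and none of the 3 hair keratins.

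In the cKO-labelled library, pairs of the genes were seen in the same cells more often than the product of their shares. There *Krt31* and *Krt33a* were together in 6 cells, where multiplying the shares inside 10 depth groups gives 0.332. *Krt35* was with *Krt31* in 6 cells against 0.389 and with *Krt33a* in 5 cells against 0.660. *Krt35* was with *Hoxc13* in 9 cells against 1.51 and with *Msx2* in 6 against 1.67. *Krt31* was with *Msx2* in 4 cells and with *Hoxc13* in 3, against 0.576 for each, and *Krt33a* was with *Msx2* in 3 cells against 1.05 and with *Hoxc13* in 3 against 0.95. With *Dlx3*, the cells numbered 3 against 1.19 for *Krt31*, 4 against 1.95 for *Krt33a* and 7 against 3.01 for *Krt35*. Among the regulators there were 13 cells against 6.39 for *Msx2* and *Dlx3*, 10 against 5.81 for *Hoxc13* and *Dlx3* and 8 against 3.08 for *Msx2* and *Hoxc13*. The pairs share cells, so they are not separate observations. The 10 groups hold equal numbers of cells ranked by depth. Depth can still vary inside the deepest group, as pairs were seen in cells of up to 304942 counts, so the products are not fully matched for depth. In the controls, *Krt35* was with *Dlx3* in 1 cell of control 1, against 0.0135. *Hoxc13* was with *Dlx3* in 1 cell of control 2, against 2.07, and no other pair was seen in a control.

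Of the 84 cells with a hair keratin, 14 (16.7%) had a regulator, compared with 8.04% of the other cells. The median depth of the hair keratin cells, 4150 counts, was close to the 4060 counts of the others, whereas cells with a regulator had a median of 13400 counts against 3800. Most cells with a hair keratin thus had none of the regulators at this depth. The 14 cells with both ran from 1856 to 304942 counts and include the shared barcodes of 184137 and 158910 counts. The shares of 16.7% and 8.04% are therefore not matched for depth, and no thinned shares were compared.

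**Figure D3:**
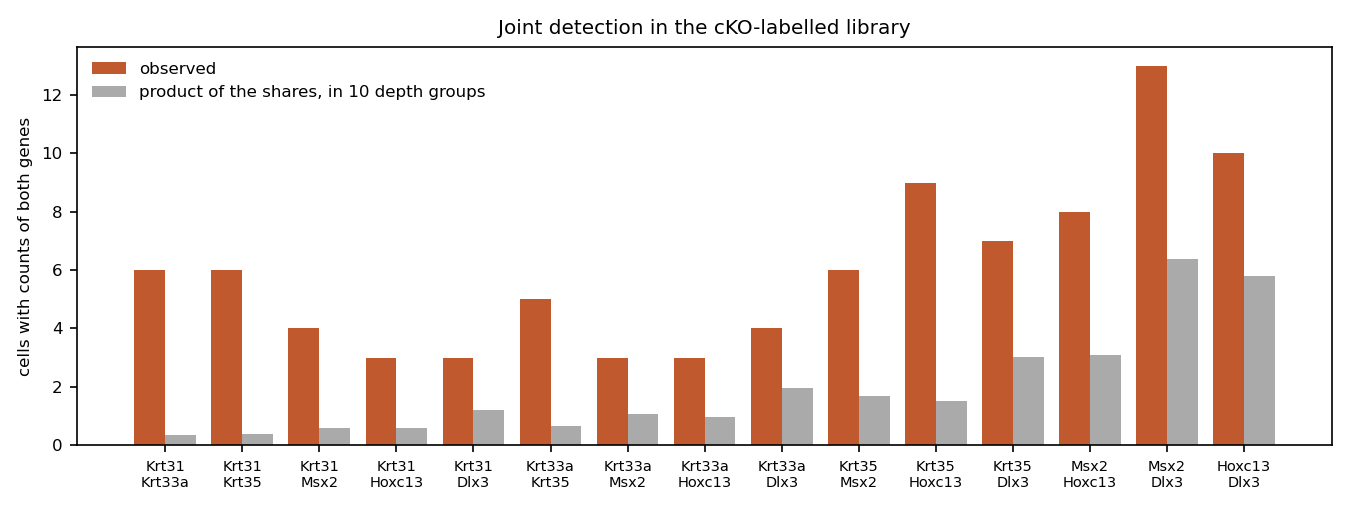
Number of cells of the cKO-labelled library with counts of both genes of a pair (orange), beside the number given by the product of the shares of cells within 10 groups of cells ranked by depth (grey). Depth can still vary inside the deepest group. The hair keratin pairs reach 5 or 6 cells against less than 1, and Msx2 with Dlx3 reaches 13 against 6.39.

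The genes were then placed among ranges of cells, each being at most the 10% of a library's cells with the largest share of counts in a list of markers, so that a range is not a cell type and ranges can overlap. The granular range (262 cells of the cKO-labelled library, markers such as *Lor* and *Flg*) should lack hair keratins and was used to gauge counts from free RNA. Hair keratins had 1.86 CPM in it and 35.5 CPM in the other cells, among them the cell with 421 of the 955 counts. After thinning, 1 of 253 granular cells held one (0.395%, interval 0.0100% to 2.18%) at a median depth of 4620 counts, against 1.33% in the library as a whole at a median of 4060 counts. The interval contains the share of the whole library, so at this depth a difference in shares between the granular range and the rest was not detectable.

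In the inner root sheath range, whose markers include *Tchh*, *Krt25* and *Krt71*, hair keratins had 62.9 CPM against 28.8 CPM elsewhere, and this range held 15 of the 84 cells. The thinned share was 2.33% (0.861% to 5.01%). The companion layer range had 185 CPM against 13.6 CPM and the bulge range 220 CPM against 16.7 CPM, with 9 and 8 of the 84 cells, and thinned shares of 1.96% each. The melanocyte range had 194 CPM against 17.9 CPM and the erythroid range 124 CPM against 15.2 CPM, with 5 and 10 of the 84 cells and thinned shares of 1.82% and 1.15%. The cell with the most hair keratin counts lay in the companion layer, bulge, melanocyte and erythroid ranges, so its counts enter the level of each. It lay outside the granular, inner root sheath, cycling and basal or outer root sheath ranges. For those ranges its counts enter the level of the other cells. Levels by range without that cell were not compared, so the order of range and other cells may rest on it. In the cycling range hair keratins had 7.28 CPM against 33.1 CPM, and in the basal or outer root sheath range 25.9 CPM against 31.3 CPM. The intervals of the thinned hair keratin shares of all 12 ranges contained the share of the whole library. For the regulators this held in 11 of the 12, the exception being the basal or outer root sheath range with 0.388% (0.00981% to 2.14%) against 2.73%.

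*Dlx3* was placed differently. In the granular range it had 59.4 CPM against 5.19 CPM in the other cells of control 1, 116 against 9.18 CPM in control 2, and 48.6 against 16.3 CPM in the cKO-labelled library. The granular range held 13 of the 28 *Dlx3* cells of control 1, 29 of the 71 of control 2 and 29 of the 121 of the cKO-labelled library. After thinning, *Dlx3* was found in 2 of 146 granular cells of control 1 (1.37%, interval 0.166% to 4.86%), 10 of 159 of control 2 (6.29%, 3.06% to 11.3%) and 4 of 253 of the cKO-labelled library (1.58%, 0.432% to 4.0%). The interval of control 2 lay above its share in that whole library, 1.13%, whereas those of control 1 and the cKO-labelled library contained the shares of theirs, 0.477% and 1.41%. Within the cKO-labelled library the level of *Dlx3* was also 76.6 CPM in the inner root sheath range against 17.1 CPM elsewhere, and 2.79 CPM in the basal or outer root sheath range against 22.4 CPM. In that library, the inner root sheath and granular ranges had the highest levels of *Dlx3* of the 12 ranges.

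*Msx2* had 28.5 CPM in the inner root sheath range of the cKO-labelled library against 11.0 CPM elsewhere, and 2.79 CPM in the basal or outer root sheath range against 12.9 CPM. *Hoxc13* had 4.23 CPM in the inner root sheath range against 13.6 CPM elsewhere, the opposite order. In the bulge range, which holds the cell with the most hair keratin, *Hoxc13* had 29.7 CPM against 11.8 CPM. After thinning, *Msx2* was found in 4 of 257 inner root sheath cells and *Hoxc13* in 0, so these placements rest on few cells.

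**Figure D4:**
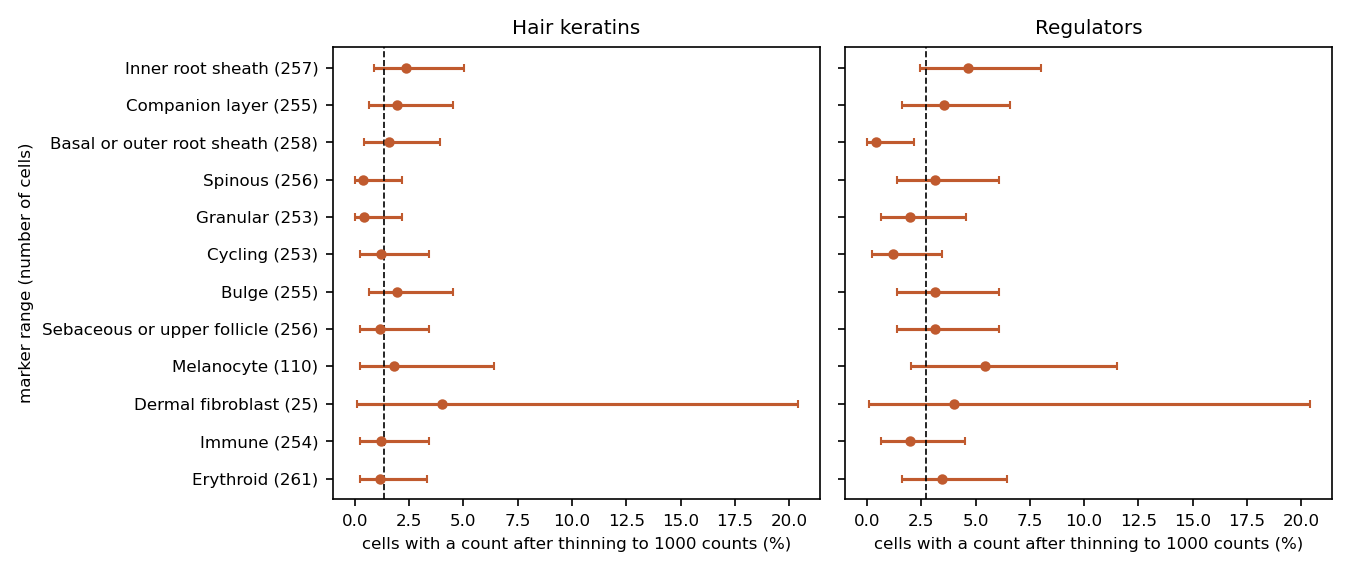
Share of thinned cells with a count of a hair keratin (left) or a regulator (right) in each marker range of the cKO-labelled library, in percent with Clopper-Pearson 95% intervals and the number of cells in parentheses; dashed lines are the shares of the whole library, 1.33% and 2.73%. The regulators' share is lowest in the basal or outer root sheath range, at 0.388%, and the hair keratins' share is lowest in the spinous and granular ranges, at 0.391% and 0.395%.

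Other genes of the shaft were counted in the same library. Of 12 other hair keratins, 2 had a count in control 1, 3 in control 2 and 10 in the cKO-labelled library, 7 of them only there. Of all 18156 genes with a count in that library, 14.0% had one only there, and the controls had counts of 14508 and 16180 genes. Their summed level was 33.5, 14.7 and 81.9 CPM. Of the 3 at 10 CPM or more, *Krt84*, a basic keratin, had 0.0532, 0 and 11.0 CPM and *Krt87* had 0, 0.0697 and 11.4 CPM, both over 2-fold above the controls. These 2 genes reached 10 CPM only in the cKO-labelled library, so they could be counted only by being high there. *Krt32*, an acidic keratin of the cuticle, had 33.5, 10.8 and 33.2 CPM and was not. A hair keratin gene was thus present in control 1 at the level of the cKO-labelled library.

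Of 19 keratin-associated protein genes, 19 had a count in the cKO-labelled library and 15 only there, beside the 14.0% of all genes counted in it. The 19 are all such symbols in the deposited tables, so the list itself depends on which genes those tables name. *Krtap7-1* had 0, 0 and 24.9 CPM and *Krtap8-1* had 0, 0 and 17.3 CPM, in 79 and 67 cells. *Krtap3-2* had the opposite order, with 95.2, 69.8 and 45.9 CPM, and it made up most of the summed level of 95.6 and 70.6 CPM in the controls, against 115 CPM in the cKO-labelled library. In the 84 hair keratin cells of that library, keratin-associated protein genes had 651 CPM against 78.4 CPM in the other cells and other hair keratins 573 CPM against 48.1 CPM, with 58.0% and 59.7% of those counts from 1 cell. A keratin-associated protein gene was found in 33.3% of the hair keratin cells and in 11.3% of the others.

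Other regulators and signals of the matrix and shaft summed to 555, 536 and 603 CPM. Of 20 genes, 11 were at 10 CPM or more, of which 1 was over 2-fold above both controls and 0 below, with a median log2 fold of 0.34. That gene was *Wnt10a*, a Wnt ligand, at 6.91, 0.418 and 24.8 CPM, which also reached 10 CPM only in the cKO-labelled library. *Foxn1*, a transcription factor gene required for shaft differentiation, had 4.68, 22.5 and 20.8 CPM, and *Bmp4*, which encodes a BMP ligand, had 7.61, 1.15 and 12.2 CPM. Neither stood over 2-fold from both controls. Of 8 genes of shaft structure and processing, 4 were at that level and 0 were over 2-fold from both controls. Among them *S100a3*, which encodes a calcium-binding protein of the cuticle, had 1.01, 11.0 and 21.5 CPM, and *Tgm3*, which encodes a transglutaminase, had 12.5, 11.9 and 20.3 CPM.

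Summed markers of some other layers of the follicle were also highest in the cKO-labelled library. Sebaceous or upper follicle markers, at 3460, 1730 and 2440 CPM, were not highest there as a sum, of which *Scd1* made up 1780, 846 and 777 CPM. Of these 6 markers, 1 was over 2-fold above both controls, *Krt79* at 283, 257 and 765 CPM, and 0 were below. The 8 inner root sheath markers summed to 0.585 CPM in control 1, to 2.54 CPM in control 2 and to 237 CPM in the cKO-labelled library, with all 4 of those at 10 CPM or more over 2-fold above both controls. These 4, *Krt25*, *Krt27*, *Krt71* and *Tchh*, reached 10 CPM only in the cKO-labelled library and could be counted only by being high there. Companion layer markers summed to 687, 813 and 2360 CPM, basal or outer root sheath markers to 4880, 3420 and 13300 CPM, cycling markers to 112, 74.5 and 319 CPM and bulge markers to 75.9, 40.0 and 315 CPM. Granular markers summed to 21400, 19600 and 16500 CPM and spinous markers to 67500, 77400 and 51500 CPM. The summed levels of follicle and epidermal markers thus differed between the libraries, and their part in the levels of the hair keratins and regulators was not tested. Genotype, follicle stage and the yield of follicle cells at scraping cannot be told apart with 1 cKO-labelled library.

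**Figure D5:**
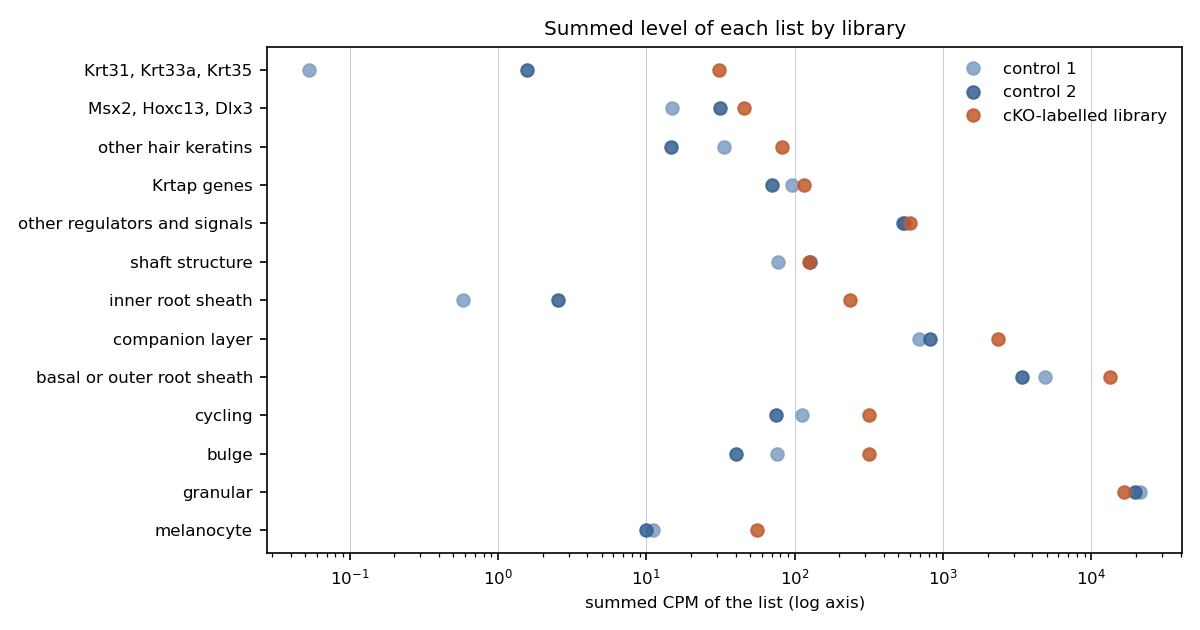
Summed CPM of each gene list (log axis) in control 1, control 2 and the cKO-labelled library. Krt31, Krt33a and Krt35 stand at 0.0532, 1.57 and 30.9 CPM and inner root sheath markers at 0.585, 2.54 and 237 CPM, while the other regulators and signals stand at 555, 536 and 603 CPM.

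Genes whose counts followed the hair keratin cells were sought among 1294 genes with at least 100 CPM in the 84 cells and a count in at least 25% of them, by the ratio of CPM in those cells to the other cells of the cKO-labelled library. The highest ratio was 10.2 for *Gm37376*, an unnamed gene model, with 645 CPM against 63.4 CPM and 42.1% of its counts in the 84 cells from 1 cell. *Krt6a*, a keratin of the companion layer, followed with a ratio of 2.58, and the other 8 of the first 10 had ratios of 1.83 to 2.17. For the regulators, 1175 genes could be compared in all 3 libraries. Ranked by the lowest ratio over the libraries, *Ly6m* came first, with 4.14 in control 1, 3.07 in control 2 and 2.35 in the cKO-labelled library. *Rnf39* came next with 3.10, 2.17 and 2.14, and *Krt23* was among the first 10 with 3.15, 2.50 and 1.85. Cells with a regulator were deeper than the rest in each library, and in the controls most of them held *Dlx3*. These ratios are descriptions over cells of the same libraries.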

How the data were processed

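The authors sequenced the RNA of single cells scraped from trypsin-treated P18 dorsal skin, captured in droplets on the Nadia instrument with barcodes of 12 bases. The authors deposited raw counts for each gene and barcode, without normalization. The genome build is mm10 per the labels. The counting rule, and whether copies of a molecule were collapsed, are not given in the sources used here, so counts can include PCR copies and intervals are then too narrow.

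Genes were matched by symbol, with positions from GENCODE M21 of GRCm38. Cells were barcodes with at least 200 genes and at most 20% mitochondrial counts. Counts were summed per library and scaled to CPM, and log2 folds used 1 CPM added. Genes at 10 CPM or more in a library were counted when over 2-fold from both controls. This procedure was tried only on simulated Poisson counts with no difference between the controls. The simulation did not include counts concentrated in few cells, so it does not bear on the counts of the members. Shares used cells thinned to 1000 counts. With 1 library labelled *Vdr* cKO, no test was made. The members and lists were chosen with earlier results of these data known. The genes named are the 7 members, genes of 4 lists at 10 CPM or more, and genes among the 10 most like each set. *Vdr* and some genes of the lists of layer and cell type markers are also named. *Krt33b*, *Krt34* and *Krt39*, below 10 CPM in every library, are named as well. The lists were fixed, except that of keratin-associated proteins, which was taken from the symbols of the deposited tables. Scaling factors came from edgeR 4.0.16 and DESeq2 1.42.0 in R 4.3.3, and other steps used Python 3.11.15, numpy 2.4.6, scipy 1.17.1, pandas 2.3.3 and matplotlib 3.10.9. Alternatives were other limits for cells, genes, folds and thinning, other scalings, removal of the highest cells or of shared barcodes, and leaving out each control.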

Additional observations from a re-analysis of the deposited data

Results flagged for a closer look

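*Dlx3* was counted in barcodes that the limits for cells left out, and its level there was higher in the library labelled *Vdr* cKO, at 31.7 CPM (4 counts), than in control 1, at 7.01 CPM (8 counts), and control 2, at 23.6 CPM (13 counts). The left-out barcodes number 160 in the cKO-labelled library, and the level there rests on 4 counts.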

How the results depend on the processing

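Of 184 values under alternatives, 139 stayed within the spread of the controls (log2 folds), the interval (shares) or 1.5 times the count, 44 did not, and 1 changed sign, the log2 fold of *Dlx3*, which was -0.10 without control replicate 1. The log2 fold of the summed hair keratins was 1.92 with 10 CPM added and 5.09 with 0.1 CPM added, as the constant sets for a level near 0, and ran from 3.63 to 4.92 when either control was left out. That of the summed regulators kept within its spread of 0.726 in all 12 alternatives, from 0.54 to 1.56. The log2 folds of *Krt35*, *Msx2* and *Krt33a* left their spreads of 0.0529, 0.175 and 0.251 in 8, 6 and 5 of 12 alternatives. They ran from 1.24 to 6.76, from 0.87 to 2.49 and from 1.03 to 5.49, with no change of sign. Each spread is set by the gap between the controls. Leaving out a control therefore could not take a log2 fold beyond its spread, and those alternatives do not show stability. The 829 genes over 2-fold from both controls became 197 at 50 CPM or more, 1487 at 3 CPM or more, 2092 with no filter, 1810 at 1.5-fold, 333 at 3-fold, and 1553 to 1835 against a single control as the limits themselves set. Without thinning, a hair keratin was found in 3.20% of the cells of the cKO-labelled library and 2 or more members in 1.22%, and at 2000 counts a hair keratin in 2.06%. A regulator was found in 2.84%, 5.91% and 8.31% of the cells of control 1, control 2 and that library without thinning and in 1.25%, 3.13% and 4.63% at 2000 counts, and in 0.847% of control 2 and 1.76% of the cKO-labelled library at 500 counts. With 200 detected genes drawn, chosen after seeing the data, the cKO-labelled library had 1.14% for a regulator and 0% for 2 or more members. *Hoxc13* and *Dlx3* depend on the control used, with log2 folds of 0.86 and -0.10 without control replicate 1 and 2.92 and 0.72 without control replicate 2. No paired analysis was possible because there is 1 cKO-labelled library. At this depth a count of 0 was set to 3 counts a library for the folds, which is not an upper bound, and ratios to 1 to 3 counts have wide counting intervals.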

Other observations

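Markers of cell types other than keratinocytes, and sebaceous or upper follicle markers, also differed between the libraries. Melanocyte markers, which in skin of this kind mark pigment cells of the hair bulb among others, summed to at most 11.1 CPM in a control and to 56.1 CPM in the cKO-labelled library, with both markers at 10 CPM or more over 2-fold above the controls. Those markers, *Dct* and *Mitf*, reached 10 CPM only in the cKO-labelled library, so their high level there is what put them in the count. In the order control 1, control 2 and cKO-labelled library, immune markers summed to 157, 215 and 290 CPM, dermal fibroblast markers to 8.72, 0.767 and 3.78 CPM and sebaceous or upper follicle markers to 3460, 1730 and 2440 CPM. Erythroid markers summed to 104, 463 and 62.5 CPM, with 3 of 4 over 2-fold below both controls in the last.

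In the 84 hair keratin cells of the cKO-labelled library, melanocyte markers had 17.5 CPM against 58.7 CPM in the other cells, cycling markers 188 against 328 CPM, spinous markers 64100 against 50600 CPM and genes of shaft structure and processing 234 against 116 CPM. Inner root sheath markers had 200 CPM in them against 239 CPM elsewhere, although at least 1 of them was found in 23.8% of the hair keratin cells and in 14.3% elsewhere.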
